A study of Mus musculus with 8 samples.

Results

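Purkinje cells are the output neurons of the cerebellar cortex, and the 29 genes described here were chosen by name as genes these cells express, whole or in part. All 29 were found among the 20352 genes of the arrays, on 552 probe sets that carry 1 gene symbol each. A gene value is the mean over its probe sets, on the log2 scale, and a difference is the mutant mean minus the wild-type mean on that scale. Ppp1r17 was listed on the array under the older name Gsbs, and Skor2 under Gm7348.

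RNA came from whole cerebellum of mice aged 28 days, with 1 array per animal. The 4 wild-type mice and the 4 mutants were of a mixed Swiss Webster (CD-1) stock, and the mutants carry the genotype label Cic-L-null, which refers to the long form of Capicua (Cic), a DNA-binding repressor that works with ataxin-1. The labels do not say how the allele was made, whether litters were shared or what sex the animals were. RNA extraction with Trizol and RNeasy is named for wild-type replicate 1 alone.

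A Purkinje cell receives excitation from parallel fibres and a climbing fibre, and answers with calcium signals. Glutamate acts on a metabotropic receptor coupled to the G protein Gq, phospholipase C beta then makes inositol trisphosphate (IP3), and IP3 opens a calcium channel of the endoplasmic reticulum. Purkinje cells are inhibitory and hold very large amounts of calcium-binding proteins. They also form parasagittal stripes, made visible by zebrin II, the product of Aldoc. The loss of Purkinje cell function in spinocerebellar ataxia type 1, a disease of mutant ataxin-1, is the setting in which Capicua has been studied most in this tissue.

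Cic itself was lower in every mutant. Its 4 wild-type values lay between 8.57 and 9.19 and its 4 mutant values between 7.48 and 7.62. By limma the mutants differed by -1.25 (SE 0.12, adjusted p = 0.00818). That call was lost with the replicate number as a block (adjusted p = 0.0564). It was also lost without Cic-L-null replicate 2 (adjusted p = 0.0589) and with unmoderated tests (adjusted p = 0.157). The defining marker of granule cells Gabra6 was at 12.45 ± 0.093 (SD, n = 4) in wild-type, well over the dim limit of 5.79, which is the 90th percentile of 967 olfactory receptor genes. Of 4 measured forebrain genes, Tbr1 was near that limit at 5.90 ± 0.16, whereas Emx1 was at 7.59 ± 0.14, Drd1 at 8.02 ± 0.22 and Ppp1r1b at 9.06 ± 0.087 (SD, n = 4 each).

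None of the 29 Purkinje cell genes passed the threshold of an adjusted p under 0.05, either upward or downward, where 28 of 20352 genes (0.138%) passed. The smallest adjusted p among them was 0.213, for Lhx1. At an unadjusted p under 0.05 there were 6 of 29 (20.7%), namely Lhx1, Prkg1, Gnaq, Dner, Fam107b and Lhx5, against 9.26% of all genes. Of these, 4 were higher (13.8% of the list, 4.56% of all genes). The other 2, Prkg1 and Fam107b, were lower (6.9% of the list, 4.7% of all genes). The 2 genes whose groups did not overlap, Lhx1 and Gnaq, were both higher in the mutants, against 5.94% of all genes in either direction and 3.02% upward. None had all mutants below all wild-type arrays, against 2.91%. The 2 of 29 without overlap are 6.90% of the list, near the 5.94% in either direction and above the 3.02% upward. These shares were not compared by a test.

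The differences were small. They ran from -0.25 for Prkg1 to 0.24 for Lhx1, with a median of 0.039, beside a median of -0.0071 over all genes. A difference above 0 was found for 21 of the 29 and for 9557 of the 20352. The median was 0.088 without wild-type replicate 1 and 0.0082 without wild-type replicate 3, and the count above 0 was 23 and 15 in those same settings. In whole tissue, fewer cells of a type and less RNA per cell cannot be told apart. All 29 gene values lay above the dim limit, as did all but 4857 of the 20352 genes. The lowest wild-type means were 6.57 for Ebf2, 6.99 for Skor2, 7.04 for Foxp2 and 7.14 for Lhx5. These were below the 7.59 of the forebrain gene Emx1. Ryr1 at 7.70, Stac at 7.85 and Fam107b at 8.01 were also below the 8.02 of the forebrain gene Drd1.

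**Figure D1:**
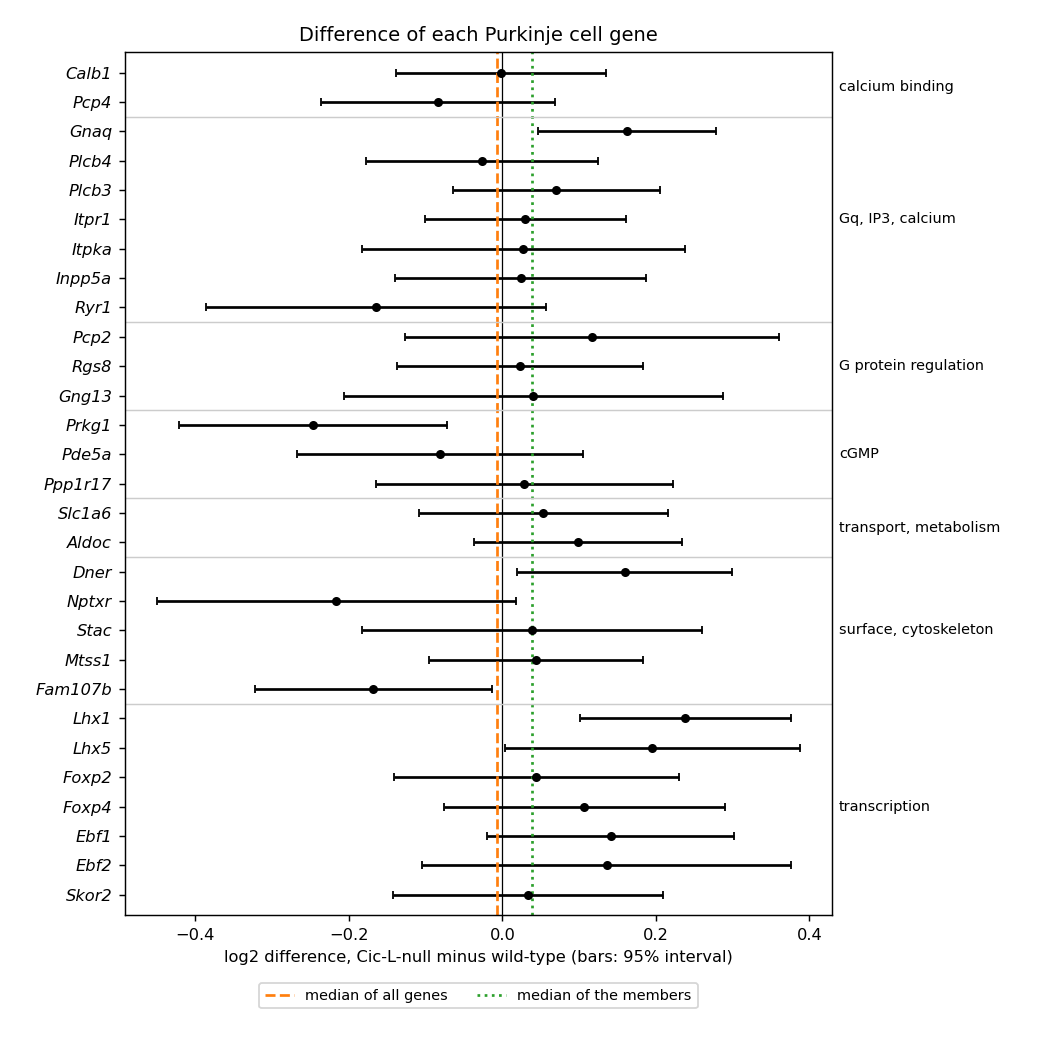
Log2 difference of each of the 29 Purkinje cell genes (points, Cic-L-null minus wild-type) with its 95% interval from limma (bars), grouped by role. The dashed line is the median of all genes, -0.0071, the dotted line the median of the 29, 0.039, and the 7 transcription factor genes at the bottom all lie to the right of 0.

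Windows from 250 bases before to 50 bases after the start of transcription were held in the RefSeq promoter table (GRCm38.p6) for 20 of the 29 genes, with 31 windows in all. They were searched on both strands for the octamer that Capicua is known to bind, spelled TGAATGAA, TGAATGGA, TCAATGAA or TCAATGGA. It was present in 2 of the 31 windows, one of Pcp2 and one of Prkg1, and in 3.84% of all 32851 windows. The half-site AGGTCA, which nuclear receptors such as Rora, a factor needed for Purkinje cell maturation, are known to bind, was present in windows of 5 of the 20 genes and in 18.1% of 27025 genes. The palindrome of the early B-cell factors (EBF) was in none of the 31 windows and in 0.90% of all windows.

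The windows shown first hold the octamer in capitals, since they are the only 2 of the list with a match. The Pcp2 stretch lies on the minus strand at chr8:3625280-3625399 and runs 3 bases past a start site, and the Prkg1 stretch lies on the minus strand at chr19:31765034-31765153. The octamer and the half-site do not overlap in any of the windows.
Pcp2 octamer window: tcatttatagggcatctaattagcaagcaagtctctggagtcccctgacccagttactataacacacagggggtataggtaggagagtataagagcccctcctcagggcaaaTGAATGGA
Prkg1 octamer window: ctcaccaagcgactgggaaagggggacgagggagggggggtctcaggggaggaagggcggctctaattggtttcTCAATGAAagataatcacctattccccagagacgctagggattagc

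The half-site is in capitals in the next stretches, at another start site of Pcp2 (minus strand, chr8:3625548-3625667) and at the start site of Dner (minus strand, chr1:84696218-84696341), where it occurs 2 times. Pcp2 has 4 windows in the table, and 3 of them hold the half-site, 2 by the same bases.
Pcp2 half-site window: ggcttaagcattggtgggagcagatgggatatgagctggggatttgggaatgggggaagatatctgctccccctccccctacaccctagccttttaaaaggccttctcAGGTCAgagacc
Dner half-site window: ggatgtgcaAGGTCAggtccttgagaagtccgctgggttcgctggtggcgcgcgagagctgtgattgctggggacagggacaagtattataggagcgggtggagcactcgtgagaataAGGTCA

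The 250 bases before the start sites of Lhx1 (minus strand, chr11:84525535-84525784) and Gnaq (plus strand, chr19:16132434-16132683) are given because these 2 genes had groups that did not overlap. Neither stretch holds the Capicua octamer, and their shares of G and C were 64.8% and 79.2%. A match in such a window describes its letters and is not evidence of binding.
Lhx1 upstream: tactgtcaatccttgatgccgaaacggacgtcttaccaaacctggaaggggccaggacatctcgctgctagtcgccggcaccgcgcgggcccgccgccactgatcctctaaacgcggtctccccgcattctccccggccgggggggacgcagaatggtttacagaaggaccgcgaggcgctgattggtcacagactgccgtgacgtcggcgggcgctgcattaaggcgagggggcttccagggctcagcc
Gnaq upstream: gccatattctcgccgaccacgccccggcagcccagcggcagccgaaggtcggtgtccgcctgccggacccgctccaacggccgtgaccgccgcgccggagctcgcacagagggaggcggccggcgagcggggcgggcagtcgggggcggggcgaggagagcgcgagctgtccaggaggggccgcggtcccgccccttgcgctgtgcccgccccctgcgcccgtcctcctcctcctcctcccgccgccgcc

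Calb1 encodes calbindin, the calcium buffer used most widely to stain Purkinje cells. Its log2 values were 11.71, 11.59, 11.48 and 11.67 in wild-type replicates 1 to 4 and 11.61, 11.61, 11.62 and 11.60 in the mutants. The 4 mutants lay inside the wild-type range, within an SD of 0.0082, and the difference was -0.0023 (95% interval -0.14 to 0.13). Of its 14 probe sets, 7 were lower and 7 higher. Pcp4, a small regulator of calmodulin, stood at 10.46 ± 0.12 in wild-type and 10.38 ± 0.049 (SD, n = 4 each) in the mutants, which differed by -0.084 (SE 0.069, adjusted p = 0.794).

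Gnaq encodes the alpha subunit of Gq and is expressed in many cell types besides Purkinje cells. Its log2 values were 10.49, 10.41, 10.41 and 10.44 in wild-type mice and 10.65, 10.61, 10.57 and 10.58 in Cic-L-null mice. Every mutant value was above every wild-type value. The difference was 0.16 (SE 0.053, 95% interval 0.046 to 0.28) with an adjusted p of 0.335, so the call was not made. All 11 probe sets of Gnaq were higher, and for 5 of these the mutants lay above every wild-type array. Over all probe sets the groups did not overlap, in either direction, for 4.30%. Probe sets of 1 gene were read on the same 8 arrays, so for every gene described here their counts are not independent evidence.

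Of the phospholipase genes next in the pathway, neither had groups without overlap. Plcb4, the isoform of Purkinje stripes without zebrin II, differed by -0.027 (SE 0.068), and 24 of its 38 probe sets were lower. Plcb3, the isoform of zebrin II stripes, differed by 0.070 (SE 0.061), with 21 of 31 probe sets higher. Whether these 2 differences differ from each other was not tested, and their intervals overlap, from -0.18 to 0.12 for Plcb4 and from -0.065 to 0.20 for Plcb3.

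Itpr1, the IP3 receptor of Purkinje cells, had values between 12.46 and 12.62 in wild-type and between 12.50 and 12.61 in mutants. The mutant range lay within the wild-type range, and the difference was 0.030 (SE 0.059). Of its 63 probe sets, 48 were higher in the mutants, with a median of 0.043. Itpka, a kinase that phosphorylates IP3, differed by 0.027 (SE 0.095), and Inpp5a, a phosphatase that removes a phosphate from IP3, by 0.024 (SE 0.074). Both had overlapping groups.

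Ryr1 encodes a ryanodine receptor, the other type of calcium release channel. Its values were 7.87, 7.62, 7.69 and 7.62 in wild-type and 7.68, 7.30, 7.71 and 7.45 in Cic-L-null mice. Cic-L-null replicates 2 and 4 were below all other arrays, whereas the other two mutants lay within the wild-type range. The difference was -0.16 (SE 0.10, adjusted p = 0.688), and it was -0.086 without Cic-L-null replicate 2. Of 102 probe sets, 72 were lower, 3 of them with no overlap.

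The probe set of Ryr1 with the largest difference, 10561627, had a mean of 5.08 in wild-type, below the dim limit of 5.79, and 3.75 in mutants. Its difference was -1.33 (SE 0.25, adjusted p = 0.374 in the fit of all 241576 probe sets). Ryr1 is the 1 member within 20 Mb of Cic on chromosome 7, where an altered allele can carry its neighbours from another strain. Its part in the difference was not tested. Inpp5a lies on the same chromosome but beyond that distance.

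The other genes of this pathway were taken from a list of 20, of which 16 were measured. None passed the threshold, 7 had a difference above 0 and 9 below, and the median was -0.024. Those with the smallest p were Itpr3, an IP3 receptor isoform, at -0.35 (SE 0.080, adjusted p = 0.152), Itpr2, another isoform, at 0.21 (SE 0.071) and Plcb1, a further phospholipase, at -0.25 (SE 0.087). The groups did not overlap for 2 of the 16, Itpr3 among them, both lower in the mutants, beside 2.91% of all genes downward. The scaffold gene Homer3, which links the metabotropic receptor to the IP3 receptor, differed by -0.026 (SE 0.075), and Car8, a regulator of Itpr1, by -0.058 (SE 0.062).

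Pcp2 carries a motif that binds inhibitory G protein subunits, and its promoter is a standard driver of expression in Purkinje cells. Its log2 values were 8.86, 8.46, 8.47 and 8.77 in wild-type and 8.60, 8.87, 8.92 and 8.65 in mutants. Both groups held high and low arrays, and the difference was 0.12 (SE 0.11, 95% interval -0.13 to 0.36). Probe set 10576755 stood at 0.45 (SE 0.34), and the mean of the other 6 was 0.061. Rgs8, which speeds the shut-off of G proteins, differed by 0.023 (SE 0.073), and Gng13, a gamma subunit, by 0.040 (SE 0.11).

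Prkg1 encodes a cyclic GMP-dependent protein kinase needed for long-term depression at the parallel fibre synapse. Its values were 8.74, 8.58, 8.49 and 8.62 in wild-type mice and 8.50, 8.21, 8.41 and 8.32 in Cic-L-null mice. Only Cic-L-null replicate 1 reached into the wild-type range, above wild-type replicate 3. The difference of -0.25 (SE 0.079, 95% interval -0.42 to -0.073) was the lowest of the 29, with an adjusted p of 0.329. Of its 24 probe sets 21 were lower, 4 of them with no overlap.

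Pde5a, a phosphodiesterase that breaks down cyclic GMP, differed by -0.081 (SE 0.084). Its probe sets split, with 14 lower and 11 higher, and 4 had no overlap, 3 downward and 1 upward. Ppp1r17, a phosphatase inhibitor and substrate of the kinase, had values of 10.50, 10.07, 10.14 and 10.20 in wild-type and between 10.24 and 10.27 in mutants. Its mutants were again tightly grouped inside the wild-type range, with a difference of 0.029 (SE 0.087).

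Further cyclic GMP genes were taken from a list of 11, all measured. None passed, 7 were above 0 and 4 below, with a median of 0.043. The phosphodiesterase gene Pde10a differed by 0.32 (SE 0.12, adjusted p = 0.435), the nitric oxide synthase gene Nos1 by -0.19 (SE 0.10) and Pde9a by 0.12 (SE 0.083). Prkg2, the other kinase gene, lay below the dim limit at 5.16 in wild-type.

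Slc1a6, the glutamate transporter found on Purkinje cell spines, differed by 0.053 (SE 0.073), with 8 of 10 probe sets higher. Aldoc, the zebrin II antigen, which astrocytes also express, had values from 12.67 to 12.86 in wild-type and from 12.78 to 12.88 in mutants. The groups overlapped through wild-type replicate 2. The difference was 0.098 (SE 0.061, adjusted p = 0.692), and all 9 probe sets were higher.

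Of the genes that follow the zebrin stripes, Aldoc, Plcb3 and Slc1a6 belong to the zebrin II side, with differences of 0.098, 0.070 and 0.053. On the other side, Plcb4 and the transcription factor gene Ebf2 differed by -0.027 and 0.14. None of these 5 passed, and the values moved with the setting. Ebf2 was at 0.049 with the brighter part of its probe sets and 0.27 with their median, Plcb3 at 0.031 without wild-type replicate 3, and Slc1a6 ran from 0.0040 to 0.11.

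Dner is a transmembrane Notch ligand of Purkinje cell bodies and dendrites. Its values were 12.05, 11.93, 11.91 and 11.90 in wild-type mice and 12.05, 12.21, 12.04 and 12.14 in Cic-L-null mice. Wild-type replicate 1 was the only wild-type array that reached the mutants. The difference was 0.16 (SE 0.063, adjusted p = 0.454), and it was 0.19 without wild-type replicate 1. All 15 probe sets were higher, from 0.10 to 0.24, 3 of them with no overlap.

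Fam107b, an actin-linked gene family member, had values from 7.86 to 8.09 in wild-type and of 7.88, 7.74, 7.93 and 7.80 in mutants. Wild-type replicate 3 lay among the mutants. The difference was -0.17 (SE 0.070, adjusted p = 0.483). It rests on 5 probe sets, 3 lower and 2 higher, and probe set 10468987 differed by -0.40 (SE 0.099) with no overlap.

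Nptxr, a receptor for neuronal pentraxins, was represented by 2 probe sets. Its values were 8.04, 8.02, 8.25 and 7.87 in wild-type and 7.89, 7.86 and 7.56 in Cic-L-null replicates 1, 3 and 4. Cic-L-null replicates 1 and 2 lay inside the wild-type range and the other two below it. The difference was -0.22 (SE 0.11, adjusted p = 0.585). It was -0.061 with the brighter probe set alone, since the dimmer one, 10430634, differed by -0.37. Stac, an adaptor protein gene, differed by 0.039 (SE 0.10), and Mtss1, which shapes membranes of dendrites and spines, by 0.044 (SE 0.063).

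All 7 transcription factor genes lay above 0, and their median difference was 0.14. Their median deviation from the wild-type means ran from 0.059 to 0.17 in the mutants, within the wild-type range of -0.11 to 0.18, where wild-type replicate 1 was the highest of the 8 arrays. Foxp2 was below 0 in 2 of 19 alternative settings and Skor2 in 1. Lhx1 and Lhx5 encode LIM homeodomain factors that act together in Purkinje cell differentiation. Lhx1 was at 8.62, 8.58, 8.47 and 8.63 in wild-type and at 8.84, 8.78, 8.89 and 8.74 in Cic-L-null mice. The groups did not overlap.

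The Lhx1 difference of 0.24 (SE 0.062, 95% interval 0.10 to 0.38) was the highest of the 29, with an adjusted p of 0.213. Over the alternatives that adjusted p ranged from 0.108 to 0.417. Of its 9 probe sets 8 were higher, 5 of them with no overlap. Lhx5 was at 7.07, 7.17, 7.16 and 7.17 in wild-type and at 7.43, 7.42, 7.07 and 7.44 in mutants. Cic-L-null replicate 3 was just below the lowest wild-type array, while the other 3 mutants lay above all wild-type arrays. The Lhx5 difference was 0.20 (SE 0.087, adjusted p = 0.523), and 0.29 without Cic-L-null replicate 3. All 6 Lhx5 probe sets were higher.

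Ebf1 and Ebf2 encode early B-cell factors, and Ebf2 is needed for a late-born group of Purkinje cells. Ebf1 values were 9.31, 9.12, 9.05 and 9.03 in wild-type and 9.31, 9.28, 9.19 and 9.30 in mutants. Wild-type replicate 1 was alone among the wild-type arrays in reaching the mutants. The Ebf1 difference was 0.14 (SE 0.073, adjusted p = 0.611), with 18 of 20 probe sets higher. Ebf2 differed by 0.14 (SE 0.11), with 17 of 25 probe sets higher, 18 of the 25 above the dim limit.

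The forkhead genes Foxp2 and Foxp4, both of which mark Purkinje cells, differed by 0.044 (SE 0.084) and 0.11 (SE 0.083). Skor2, a corepressor gene required for Purkinje cell identity, differed by 0.033 (SE 0.080), but by 0.25 with the median of its probe sets and 0.15 with their brighter part. Its probe sets went from -0.51 to 0.30. All 3 genes had overlapping groups.

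**Figure D2:**
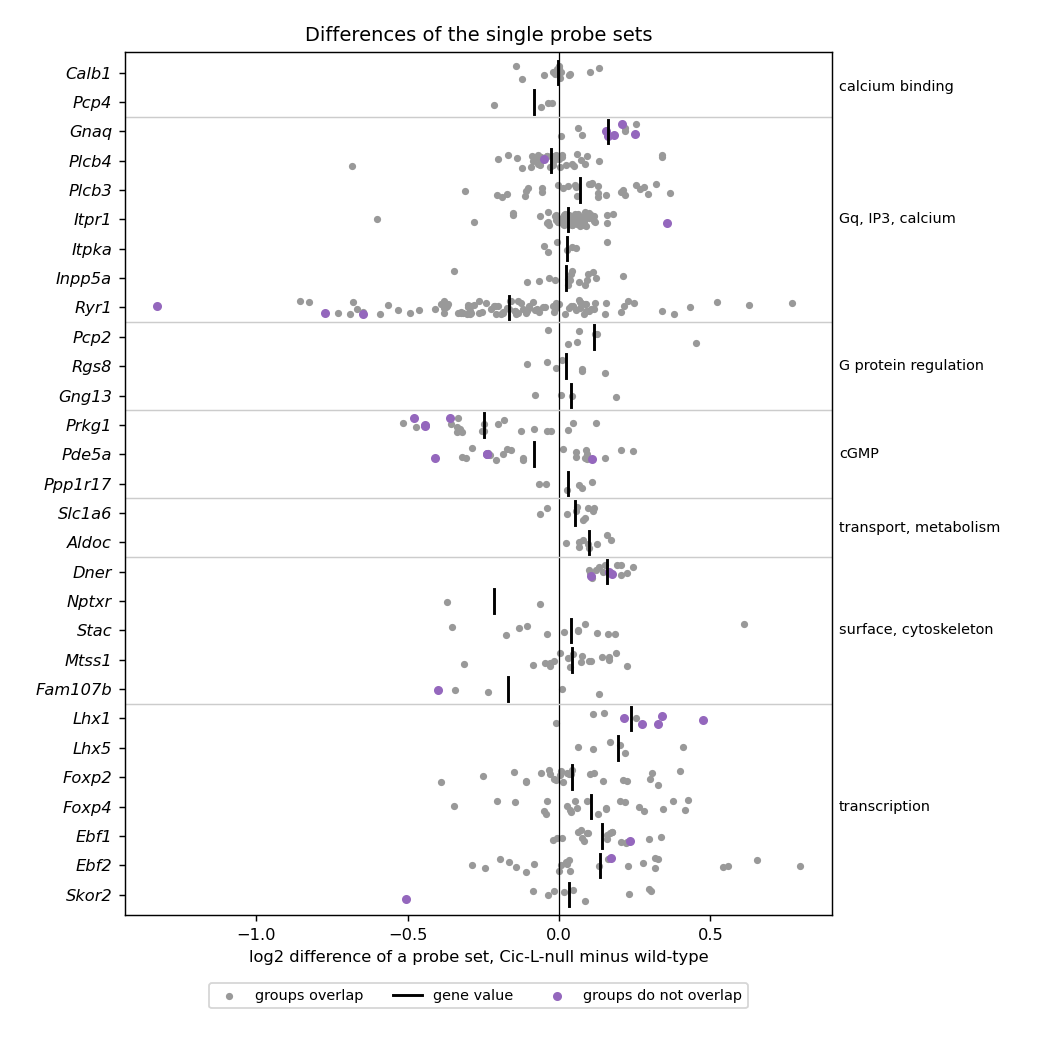
Log2 difference of each probe set of the 29 genes (small points, Cic-L-null minus wild-type), with those whose groups do not overlap in purple and the gene value as a black bar. All points of Gnaq, Dner, Aldoc and Lhx5 lie to the right of 0, and Ryr1 has the widest range, from -1.33 to 0.77.

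Over single probe sets, 321 of the 552 were higher and 231 lower, with a median of 0.029, beside 0.0068 over all 241576. None of the 552 passed the threshold over all probe sets, where 1 did. The groups did not overlap for 30 of them (5.43%), beside 4.30% of all probe sets. Of the 552, 524 were above the dim limit, beside 192515 of all 241576.

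The wild-type animals differed among themselves in these genes more than the median difference between the groups. Wild-type replicate 1 was the highest wild-type array for 19 of the 29 genes and the lowest for 1. Wild-type replicate 3 was the lowest for 17 and the highest for 1. Over all genes these arrays went both ways, replicate 1 being highest for 33.8% and lowest for 32.6%, and replicate 3 lowest for 30.5% and highest for 28.1%.

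The median deviation of the 29 genes from their wild-type means was 0.10 in wild-type replicate 1, -0.019 in replicate 2, -0.10 in replicate 3 and 0.010 in replicate 4. It was 0.033, 0.053, 0.040 and 0.0061 in Cic-L-null replicates 1 to 4. The 4 mutants thus lay between the extremes of the wild-type group. Wild-type replicate 1 is the array with its own extraction label, whose part in this was not tested. Wild-type replicates 2 and 3, with low Y-linked values, were the wild-type arrays below 0. Cic-L-null replicate 3, the mutant with low Y-linked values, was at 0.040, between other mutants. The part of sex in this spread was not tested.

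**Figure D3:**
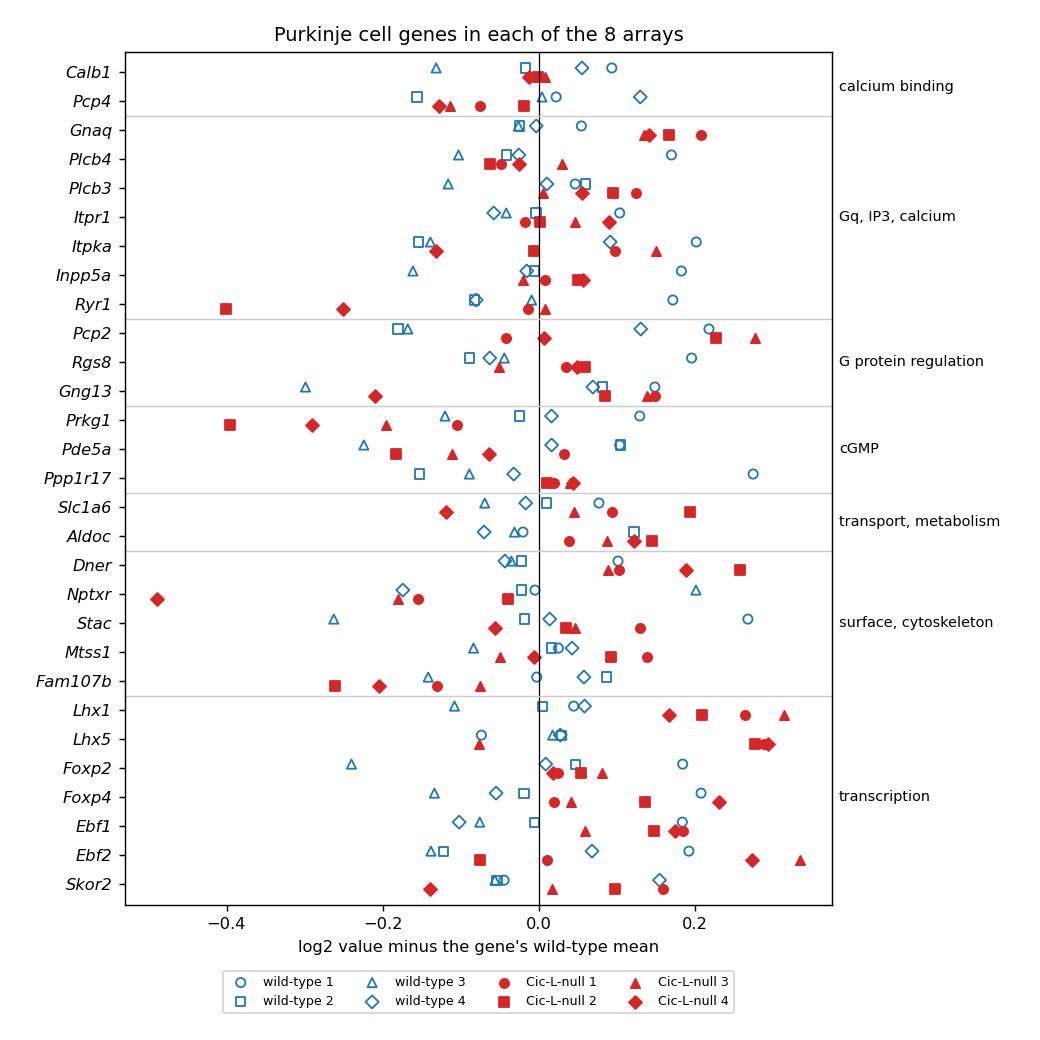
Log2 value of each of the 29 genes in each array, minus that gene's wild-type mean (open blue, wild-type replicates; filled red, Cic-L-null replicates; marker shape gives the replicate number). Wild-type replicate 1 (open circles) is the highest wild-type array in 19 genes, and only Gnaq and Lhx1 have every red marker to the right of every blue one.

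The SD over the 4 wild-type arrays exceeded that over the 4 mutants for 20 of the 29 genes, and for 59.2% of all genes. Without wild-type replicate 1 the count was 15 of 29 (46.1% of all genes), and without wild-type replicate 3 it was again 15 (51.4%). The median SD of the 29 was 0.12 over wild-type and 0.079 over mutant arrays. Calb1 and Ppp1r17 had the smallest mutant SD, at 0.0082 and 0.016, against 0.099 and 0.19 in wild-type. Lhx5 and Ryr1 were among the remaining genes, which had the larger SD in mutants.

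**Figure D4:**
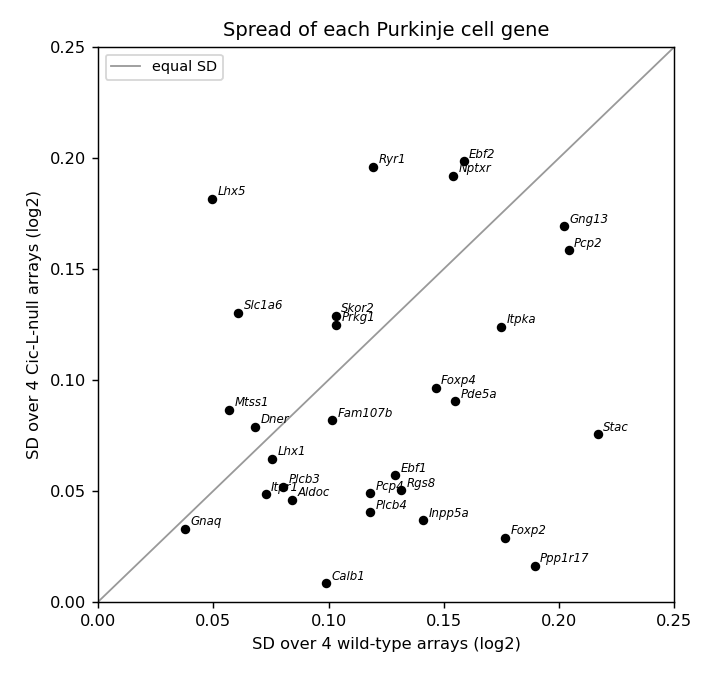
SD of each of the 29 genes over the 4 wild-type arrays (horizontal axis) and over the 4 Cic-L-null arrays (vertical axis), on the log2 scale, with the line of equal SD. Below the line lie 20 genes, Calb1 and Ppp1r17 lowest, and Lhx5 lies far above it with 0.049 in wild-type and 0.18 in mutants.

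Other genes with strong Purkinje cell expression were taken from a list of 20, of which 16 were measured. None passed, 12 were above 0 and 4 below, and the median was 0.026. Rora, the nuclear receptor gene named above, differed by 0.16 (SE 0.054, adjusted p = 0.335), and Cacna1g, a calcium channel gene, by 0.19 (SE 0.061, adjusted p = 0.329). The groups did not overlap for either, nor for Gria3, a glutamate receptor gene that was higher, and Cck, which was lower. That is 3 of 16 higher and 1 of 16 lower, beside 3.02% and 2.91% of all genes. The list was chosen with earlier results of these data known, and these shares were not compared by a test. Pvalb, which encodes the calcium buffer parvalbumin, differed by 0.012 (SE 0.054). Cck, a neuropeptide gene, differed by -0.38 (SE 0.074, adjusted p = 0.0901).

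Markers of the neighbouring cells were set beside the Purkinje cell genes. Of 13 measured granule cell markers 8 were above 0, with a median of 0.049, and their median deviation lay between -0.026 and 0.049 in wild-type and between 0.0053 and 0.063 in mutants. Of 12 markers of Bergmann glia and astrocytes 9 were below 0, with a median of -0.059, and Fabp7 among them fell by 1.17 (SE 0.14, adjusted p = 0.0180). Cyp4f15 of the same list went the other way, at 0.53 (SE 0.098, adjusted p = 0.0766). The groups did not overlap for 3 of the 12 downward and 2 upward, beside 2.91% and 3.02% of all genes. The 9 measured oligodendrocyte markers were all below 0, with a median of -0.12. Their deviation lay between -0.015 and 0.037 in wild-type and between -0.20 and -0.093 in mutants, without overlap. Slc1a3, the glutamate transporter gene of Bergmann glia, differed by -0.031 (SE 0.056), and Mbp, a myelin gene, by -0.11 (SE 0.055). Markers of interneurons, 6 of 10 above 0, had a median of 0.043. All 5 choroid plexus markers were below 0, with a median of -0.28, and Cic-L-null replicate 3 had the lowest deviation, -1.11. The part of any of these cells in the differences of the Purkinje cell genes was not tested.

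**Figure D5:**
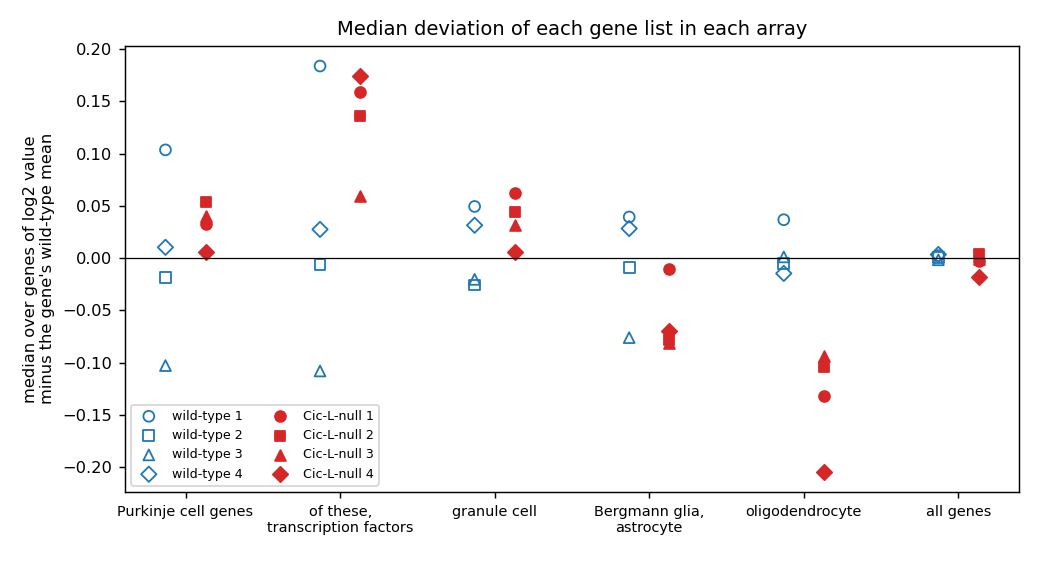
Median over each gene list of the log2 value minus the gene's wild-type mean, for every array (open blue, wild-type; filled red, Cic-L-null; marker shape gives the replicate number). For the Purkinje cell genes the 4 mutants, from 0.0061 to 0.053, lie within the wild-type range of -0.10 to 0.10, while for oligodendrocyte markers they lie below all wild-type arrays.

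The size of change that these arrays could have shown bears on the reading of the missing calls. In data simulated from these gene values, where 200 genes were shifted, limma called 87.7% of those shifted by 0.5 log2 units and 0% of those shifted by 0.25. The number of changed genes in the measured data is not known, and 28 were called. With fewer than 200 changed genes the adjustment is stricter, so 87.7% can be too high here. The 29 differences were all under 0.25 in size with the mean of the probe sets as gene value. Under other settings some passed it, such as Prkg1 at -0.37 and Lhx1 at 0.32 with the median of the probe sets. The 95% intervals of the 29, with the mean as gene value, reached no lower than -0.45, for Nptxr with its 2 probe sets, and no higher than 0.39, for Lhx5. With that gene value, and for 1 gene at a time, these bounds and not the missing calls give the size of difference left possible. They are not adjusted for the number of genes. With the median of the probe sets the SE was 0.12 for Prkg1, and Skor2 was at 0.25 (SE 0.15). For these 2 genes the bounds are wider there, since the SE with the mean was 0.079 and 0.080. This does not hold for every member, as the SE of Pde5a was 0.076 with the median and 0.084 with the mean.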

How the data were processed

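The authors deposited log2 values. Per the submitters' processing notes these came from RMA in Affymetrix Power Tools; versions and build: not given in the sources used here. Array medians over all probe sets were 7.82 to 7.88. Probe sets with 1 symbol in the platform annotation (212097 of 241576) were averaged per gene. Old symbols were updated through GRCm38.p6, used for names and chromosomes. Groups came from sample titles, and the design text counts 4 mice a group. limma 3.58.1 in R 4.3.3 (lmFit, eBayes) compared groups over all genes, two-sided, with Benjamini-Hochberg adjustment over 20352 genes. The fit was tested on simulated data. The members and lists were chosen with earlier results of these data known. Named genes are all members, Cic, up to 3 genes with the smallest p from each pathway list, and chosen cell markers; Homer3, Car8, Prkg2, Pvalb, Gria3 and the forebrain genes were added after their values were seen. The labels do not say that replicate numbers pair the samples, so the main fit has no block (see the closing section). Alternatives changed the gene value, dim filter, normalization, variance model, array weights, block, Y-linked covariate, test, threshold and arrays used. Listed genes without a value were left out.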

Additional observations from a re-analysis of the deposited data

Results flagged for a closer look

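Of 60 groups of 4 arrays, 2 for each of the 29 genes and Cic, 5 held an array that stood apart from the other 3 by Dixon's ratio at its 95% limit, and chance gives about 1 in 20. Rgs8 was at 10.72 in wild-type replicate 1, with the others from 10.44 to 10.48. Dner was at 12.05 in wild-type replicate 1, with the others from 11.90 to 11.93. Lhx5 was at 7.07 in wild-type replicate 1, with the others from 7.16 to 7.17. Lhx5 was also at 7.07 in Cic-L-null replicate 3, with the other mutants from 7.42 to 7.44. Skor2 was at 7.15 in wild-type replicate 4, with the others from 6.93 to 6.95. Wild-type replicate 1 thus gave 3 of the 5.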

How the results depend on the processing

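No Purkinje cell gene was called in any of the 19 alternative fits, or among the 552 probe sets in the fit over all probe sets; at an unadjusted p under 0.05 the count was 6. The median of the 29 differences stayed above 0 in the settings run, from 0.0082 to 0.088 when single arrays were left out. The count of called genes over all genes, 28, was 0 to 37 without single arrays, 2 with the median of probe sets, 12 with their brighter part, 47 among genes above the dim limit, 130 with a trended and robust variance, 54 with array weights, 18 with a covariate of Y-linked genes, 0 with an unmoderated test, 1885 at an unadjusted p under 0.05 and 1 over all probe sets. With the replicate block it was 0; deviations of same-numbered arrays correlated between 0.00033 and 0.22, and 2 of the 4 wild-type arrays correlated best with their own number. With so few arrays these values cannot decide whether the replicate numbers pair the animals, and the labels state no pairing. With the replicate block the median of the 29 differences was 0.039.

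Signs turned only for members with small differences, in 31 of 551 fits of single members, and the cause was not tested. With the median of probe sets these were Calb1 at 0.11, Itpka at -0.035, Rgs8 at -0.011, Gng13 at -0.017 and Stac at -0.12. With the brighter part they were Calb1 at 0.012, Itpka at -0.0091, Gng13 at -0.035, Ppp1r17 at -0.027, Stac at -0.091 and Foxp2 at -0.018. With arrays centred on their median Calb1 was at 0.0011. With the Y-linked covariate Inpp5a was at -0.0071, Rgs8 at -0.0074, Ppp1r17 at -0.0051 and Stac at -0.00056. Without single arrays the ranges were -0.046 to 0.029 for Calb1, -0.036 to 0.11 for Foxp2, -0.059 to 0.12 for Gng13, -0.030 to 0.085 for Inpp5a, -0.024 to 0.094 for Itpka, -0.061 to 0.030 for Plcb4, -0.022 to 0.12 for Ppp1r17, -0.0066 to 0.088 for Rgs8, -0.0086 to 0.091 for Skor2 and -0.049 to 0.13 for Stac. The number of animals limits the precision, and no count of reads bears on these arrays.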
